A study of Mus musculus with 4 samples.

Results

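The 39 genes described here encode the proteins that license and copy DNA, together with E2F transcription factors and other genes known as their targets. They were chosen by name, with earlier results of these data known. Their probes were found through the RefSeq accession that the array files give each probe. All 39 had a probe, 45 probes in all, among 21154 genes named on the array. The cells were primary cultured mouse mesenchymal stromal cells (MSCs), the multipotent connective tissue cells of the stroma, at passage 5. They carried short hairpin RNAs delivered by retrovirus. The shIslr arrays came from cells with 1 of 3 hairpins of different target sequence against Islr, the gene of Meflin, a surface and secreted protein of stromal cells. The shControl array came from cells with a control hairpin. Each hairpin was measured on 1 array of total RNA, so there were 3 shIslr arrays (hairpins 1, 2 and 3 by their label numbers) and 1 shControl array. Animal age and strain, and whether the 4 cultures came from 1 cell preparation, are not given in the sources used here.

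Before a cell copies its DNA, the origin recognition complex, Cdc6 and Cdt1 load the ring-shaped Mcm2 to Mcm7 helicase onto origins, and geminin (Gmnn) blocks a repeat of this step in the same cycle. Cyclin E kinase activity, Mcm10, Cdc45 and the GINS complex then turn the helicase on, and DNA polymerases follow behind it. Many of these genes are switched on together in late G1 by E2F transcription factors once the retinoblastoma protein family lets go of them, so their RNA is a common readout of how many cells of a culture are cycling. In RNA from a whole culture, more cycling cells and more of these RNAs in each cycling cell cannot be told apart.

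The sites that E2F proteins bind in such promoters are usually written as a run of T followed by C and G letters. Promoter sequences from RefSeq (build GRCm38.p6), each reaching from 250 bases before the annotated gene start over the first 50 bases of the gene, were searched on both strands for TTTCCCGC, TTTCGCGC, TTTGCCGC and TTTGGCGC. Sequences were at hand for 33 of the 39 genes, with 41 windows because some genes have several starts. At least 1 of the 4 strings was found in 14 of the 41 windows (34.1%), against 744 of all 32851 promoter windows (2.26%). By string, TTTCGCGC was in 8 windows of these genes (0.323% of all windows), TTTGGCGC in 7 (0.514%), TTTCCCGC in 5 (1.07%) and TTTGCCGC in 0 (0.441%). A match is a run of letters and not evidence of binding, and no match says only that these letters are not in the window. The following 5 windows are shown, chosen after the search, because they cover licensing genes with matches (Orc1, Mcm5, Mcm6), an E2F gene with a match (E2f2) and the sliding clamp gene Pcna, which has none. They run 5′ to 3′ on the strand of the gene, and capitals mark the matches.
Orc1, chr4:108579204-108579503, plus strand: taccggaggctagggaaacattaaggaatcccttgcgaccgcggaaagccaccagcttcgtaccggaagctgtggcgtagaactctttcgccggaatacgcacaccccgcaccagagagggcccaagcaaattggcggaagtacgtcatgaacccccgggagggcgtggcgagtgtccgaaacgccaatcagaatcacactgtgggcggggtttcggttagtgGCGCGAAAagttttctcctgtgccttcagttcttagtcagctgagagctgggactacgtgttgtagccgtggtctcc
Mcm5, chr8:75109259-75109558, plus strand: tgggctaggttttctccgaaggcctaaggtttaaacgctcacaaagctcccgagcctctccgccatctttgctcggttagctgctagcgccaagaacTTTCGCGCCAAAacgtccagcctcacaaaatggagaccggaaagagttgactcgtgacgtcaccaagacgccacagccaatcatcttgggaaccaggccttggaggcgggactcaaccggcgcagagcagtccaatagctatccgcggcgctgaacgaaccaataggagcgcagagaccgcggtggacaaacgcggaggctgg
Mcm6, chr1:128359656-128359955, minus strand: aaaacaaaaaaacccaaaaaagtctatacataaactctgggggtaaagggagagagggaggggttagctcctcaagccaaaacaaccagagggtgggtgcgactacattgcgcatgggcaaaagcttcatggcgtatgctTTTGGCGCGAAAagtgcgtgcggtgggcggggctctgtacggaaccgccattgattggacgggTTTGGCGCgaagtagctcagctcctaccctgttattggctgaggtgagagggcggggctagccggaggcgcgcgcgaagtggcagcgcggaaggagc
E2f2, chr4:136172024-136172323, plus strand: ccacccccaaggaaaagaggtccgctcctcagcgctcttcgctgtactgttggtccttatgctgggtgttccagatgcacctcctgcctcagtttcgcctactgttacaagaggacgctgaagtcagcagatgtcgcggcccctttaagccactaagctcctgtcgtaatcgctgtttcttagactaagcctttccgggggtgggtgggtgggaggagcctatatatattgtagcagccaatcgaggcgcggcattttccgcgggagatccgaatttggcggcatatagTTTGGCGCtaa
Pcna, chr2:132253131-132253430, minus strand: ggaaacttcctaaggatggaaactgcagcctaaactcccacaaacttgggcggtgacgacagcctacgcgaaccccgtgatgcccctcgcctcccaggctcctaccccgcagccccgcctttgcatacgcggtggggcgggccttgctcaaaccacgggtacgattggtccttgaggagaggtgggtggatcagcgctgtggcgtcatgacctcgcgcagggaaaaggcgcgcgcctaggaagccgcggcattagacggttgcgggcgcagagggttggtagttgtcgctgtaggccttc
In Mcm5 and Mcm6 a match on the gene strand overlaps a match on the other strand by 4 letters, which gives the runs of 12 capitals. The Mcm6 window holds another match that begins 47 bases before the start.

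**Figure D1:**
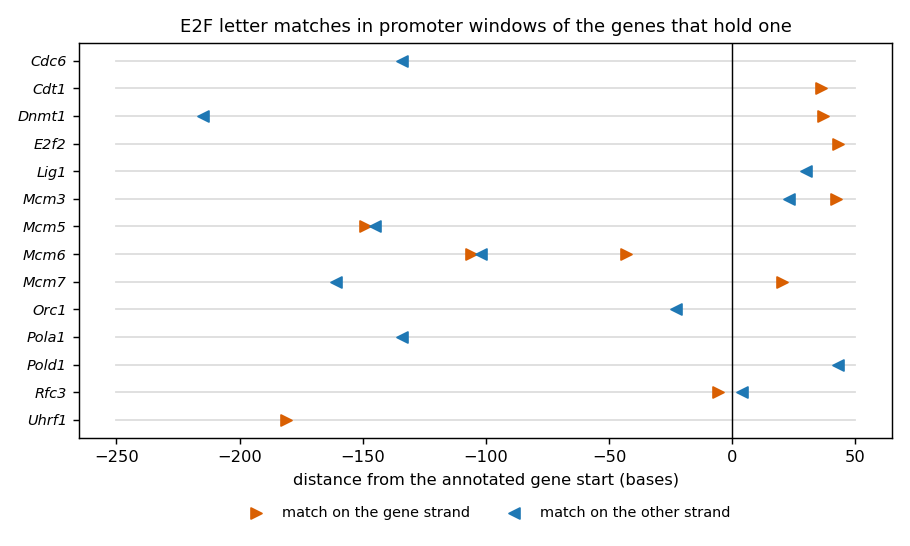
Position of each match to the 4 E2F strings (triangles, pointing right for the gene strand and left for the other strand) along the promoter windows (grey lines) of the 14 genes that hold one, in bases from the annotated gene start at 0. Matches lie on both sides of the start, and in Mcm5 and Mcm6 paired triangles overlap.

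Each value below is a processed spot signal divided by the 75th percentile of its own array, called the relative signal. Differences are log2, hairpin minus control, summarised as the hairpins' mean ± SD (n = 3), and all 3 are taken against the same control array. Levels of different genes are not compared, since each probe binds with its own strength. The 75th percentile was 415, 435 and 433 signal units on hairpins 1, 2 and 3 and 442 on the control array, and the share of the 59305 features well above background ran from 49.4% to 53.8%. All 4 arrays lay on 1 slide, and no feature was saturated. The Islr probe had relative signals of 0.0265, 0.162 and 0.00794 on hairpins 1, 2 and 3, against 1.03 on the control array. It was not well above background on hairpins 1 and 3, and on hairpin 2, which kept the most, 15.8% of the control level was left. The 9 MSC marker genes looked up were all well above background on the 4 arrays, with summed relative signals of 179, 220.5 and 190.4 on hairpins 1, 2 and 3 against 233 on the control array. Most of each sum was Ly6a, with 111, 175 and 141 on hairpins 1, 2 and 3 and 175 on the control array. Of the 9 markers, 4 were higher and 3 lower on all 3 hairpins, against 27.6% and 24.6% of all genes. Single MSC markers differed in both directions, from -0.81 ± 0.61 for Pdgfra and -0.59 ± 0.55 for Pdgfrb to 1.12 ± 0.49 for Thy1, and none passed limma's test. Not well above background on any array were Epcam and Cdh1 (epithelial), Ptprc and Adgre1 (leukocyte) and Cdh5 and Tek (endothelial). Itgam, Cd3e, Pecam1 and Kdr were well above background on all 4. The summed relative signal of the 4 leukocyte markers Ptprc, Itgam, Adgre1 and Cd3e was 22.2, 18.4 and 12.5 on hairpins 1, 2 and 3 and 21.2 on the control array. Nearly all of it was Itgam, with 21.1, 17.3 and 11.4 on hairpins 1, 2 and 3 and 20.1 on the control array. The part of these markers in the results was not tested.

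Of the 39 genes, 38 were well above background on all 4 arrays and entered the comparison. Cyclin E2 (Ccne2) was not well above background on any array, with relative signals of 0.00994, 0.0202 and 0.0199 on hairpins 1, 2 and 3 and 0.00856 on the control array. Among the 38, 37 were higher than the control on all 3 hairpins, as were 27.6% of all 13567 genes tested. None was lower on all 3 (24.6% of all genes). The remaining gene, Tyms, lay on both sides of the control. The 38 genes had median differences of 0.35, 0.81 and 0.36 on hairpins 1, 2 and 3. For the mean of the hairpins the median was 0.50 (1.41-fold), against 0.01 over all genes. In 35 of the 38 the mean was positive and larger than its SD, against 26.2% of all genes. The 3 differences of a gene share the control array, so an error on that array moves them together.

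No gene of the 38 passed limma's test of the 3 hairpins against the control at an adjusted p of 0.05 (adjusted p from 0.416 to 0.998), in which the spread between hairpins stands in for that of the lone control. Over all genes, limma called 0% higher and 0.346% lower. The silenced gene Islr did not pass either, with a mean difference of -4.98 (limma adjusted p = 0.964). A gene that was not called is thus not shown to be unchanged. At an unadjusted limma p under 0.05, 4 of the 38 were higher (E2f2, Asf1b, Gmnn and Mcm10), against 1.52% of all genes. By size, E2f2, Asf1b and Gmnn, 3 of the 38, exceeded the control by 1.5-fold or more on each hairpin, against 0.958% of all genes. None exceeded it by 2-fold or more on each hairpin, which 0.236% of all genes did. The smallest of the 3 differences lay among the highest 9.99% of all genes for 27 of the 38 and among the highest 0.995% for 3. The genes are mostly bright: 34 had a mean relative signal at or above 1, and all 34 were higher on all 3 hairpins, which 31.6% of the 8444 genes of that brightness were.

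**Figure D2:**
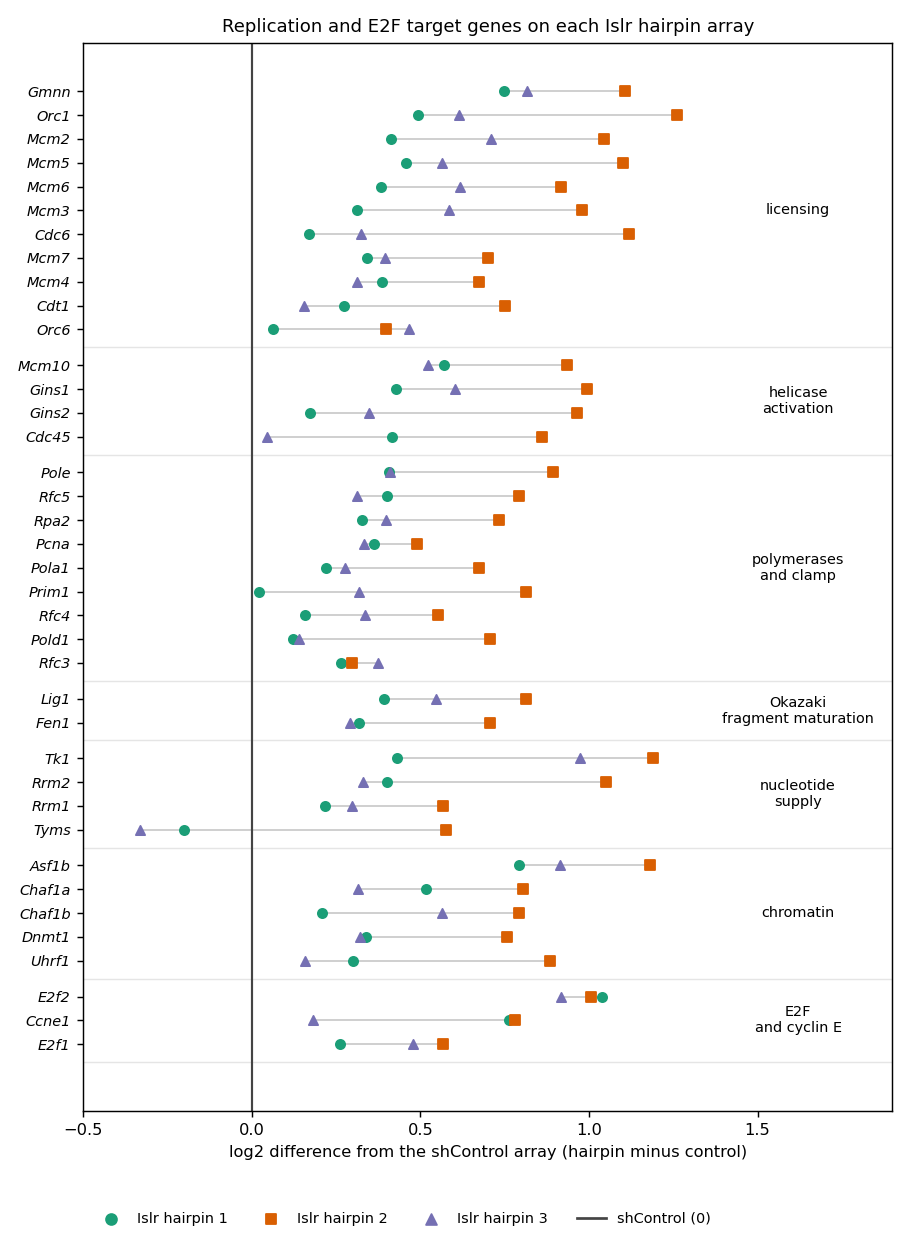
Log2 difference of each gene from the shControl array (vertical line at 0) on Islr hairpin 1 (circles), hairpin 2 (squares) and hairpin 3 (triangles), grouped by role, with a grey bar over the range of the 3 hairpins. All points lie to the right of the control except the Tyms values on hairpins 1 and 3, and the square is the rightmost point in 35 of 38 genes.

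The licensing genes were higher on all 3 hairpins in 11 of 11 cases, with means from 0.31 to 0.89. Geminin, which binds and holds back Cdt1, had relative signals of 2.09, 2.67 and 2.19 on hairpins 1, 2 and 3, against 1.24 on the control array. Every hairpin was at least 1.68-fold above the control, and the mean difference was 0.89 ± 0.19 (limma adjusted p = 0.757). Cdt1, the loading factor that geminin restrains, differed less, by 0.39 ± 0.32, with 24.1, 33.6 and 22.2 on hairpins 1, 2 and 3 against 20.0 on the control array. Orc6, a subunit of the origin recognition complex, had 11.3, 14.3 and 15.0 on hairpins 1, 2 and 3, against 10.8 on the control array. Its hairpin 1 value lay within 1.04-fold of the control, the least of the licensing genes. Orc1, the subunit that binds ATP and helps to recruit Cdc6, gave 0.214, 0.365 and 0.233 on hairpins 1, 2 and 3, against 0.152 on the control array (0.79 ± 0.41, or a mean of 0.43 with normexp correction and quantile normalization). Cdc6, the ATPase that loads the helicase together with Cdt1, gave 0.477, 0.922 and 0.531, against 0.424 on the control array (0.54 ± 0.51). For Orc1 and Cdc6 it was hairpin 2 that stood well apart, at 2.40-fold and 2.17-fold over the control.

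The 6 subunits of the helicase ring were all higher on all 3 hairpins. Mcm2 differed by 0.72 ± 0.32 and Mcm5 by 0.71 ± 0.34, with hairpin 2 above 2-fold in both. Mcm6 (0.64 ± 0.27) and Mcm3 (0.63 ± 0.33) followed, and Mcm7 (0.48 ± 0.19) and Mcm4 (0.46 ± 0.19) differed least. Mcm5 had relative signals of 13.0, 20.2 and 13.95 on hairpins 1, 2 and 3, against 9.44 on the control array. Mcm6 had 38.7, 56.0 and 45.5, against 29.7 on the control array. In each of the 6 subunits hairpin 2 was the highest array and the control the lowest.

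Genes that turn the loaded helicase on were higher on all 3 hairpins in 4 of 4 cases. Mcm10, which joins the helicase as it starts to unwind, had 4.77, 6.14 and 4.62 on hairpins 1, 2 and 3, against 3.22 on the control array (0.68 ± 0.23, limma adjusted p = 0.964). Cdc45, which with GINS completes the active helicase, had 0.336, 0.458 and 0.260 on hairpins 1, 2 and 3, against 0.252 on the control array. On hairpin 3 Cdc45 was thus level with the control (1.03-fold), and its mean difference of 0.44 ± 0.41 was close to its spread. The GINS subunit genes Gins1 (0.67 ± 0.29) and Gins2 (0.49 ± 0.42) were nearly 2-fold higher on hairpin 2, with 1.99-fold and 1.95-fold.

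Polymerase, clamp and clamp loader genes showed smaller differences, with 9 of 9 higher on all 3 hairpins and means from 0.31 to 0.57. Pole, the catalytic subunit of the leading strand polymerase, had 6.30, 8.82 and 6.31 on hairpins 1, 2 and 3, against 4.75 on the control array (0.57 ± 0.28). Prim1, the primase subunit that makes the RNA primers, had 11.1, 19.3 and 13.7, against 10.99 on the control array (0.38 ± 0.40). Pcna, the sliding clamp that tethers polymerases to DNA, had 46.2, 50.5 and 45.3, against 35.99 on the control array (0.39 ± 0.08). Prim1 on hairpin 1 did not stand above the control (1.01-fold), whereas the 3 Pcna values lay close together, between 1.26-fold and 1.40-fold. The clamp loader subunit genes Rfc3 (0.31 ± 0.06), Rfc4 (0.35 ± 0.20) and Rfc5 (0.50 ± 0.26) were alike in direction. So were Rpa2 (0.49 ± 0.22), of the complex that coats single-stranded DNA, Pola1 (0.39 ± 0.25), of the polymerase that starts each strand, and Pold1 (0.32 ± 0.33), of the lagging strand polymerase.

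Of the enzymes that finish the lagging strand, Lig1, the ligase that seals its fragments, had 11.2, 15.0 and 12.5 on hairpins 1, 2 and 3, against 8.55 on the control array (0.58 ± 0.21). Fen1, the nuclease that trims the flaps between fragments, had 19.3, 25.3 and 19.0, against 15.5 on the control array (0.44 ± 0.23). Every hairpin array lay above the control for both genes.

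Nucleotide supply was the group with the exception. Thymidine kinase 1 (Tk1), which salvages thymidine, had 10.4, 17.5 and 15.1 on hairpins 1, 2 and 3, against 7.68 on the control array (0.86 ± 0.39). The ribonucleotide reductase genes Rrm2 (0.59 ± 0.40) and Rrm1 (0.36 ± 0.18), whose product makes deoxynucleotides, were also higher on all 3 hairpins. Tyms, the thymidylate synthase gene, had 0.376, 0.643 and 0.343 on hairpins 1, 2 and 3, against 0.432 on the control array. It was thus above the control on hairpin 2 (0.57) and below it on hairpins 1 (-0.20) and 3 (-0.33), with a mean of 0.01 ± 0.49. Even here hairpin 2 was the highest of the hairpins.

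Chromatin factors that act behind the fork were higher on all 3 hairpins in 5 of 5 cases. Asf1b, a histone chaperone that hands over new histones, had 7.20, 9.41 and 7.83 on hairpins 1, 2 and 3, against 4.15 on the control array. Every hairpin was at least 1.73-fold above the control (0.96 ± 0.20, limma adjusted p = 0.693). The chromatin assembly factor subunit genes Chaf1a (0.54 ± 0.24) and Chaf1b (0.52 ± 0.29) differed by smaller amounts. Dnmt1, the maintenance DNA methyltransferase, differed by 0.47 ± 0.25. Uhrf1, which brings Dnmt1 to newly copied DNA, had 10.5, 15.7 and 9.48, against 8.49 on the control array (0.45 ± 0.38), with hairpin 3 only 1.12-fold above the control.

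Among the regulators, E2f2, an activator of the E2F family, stood out by the closeness of its hairpins. It had relative signals of 1.33, 1.30 and 1.22 on hairpins 1, 2 and 3, against 0.647 on the control array. Its mean difference of 0.99 ± 0.06 (1.98-fold) was the largest of the 38 genes, and its limma adjusted p of 0.416 the smallest. E2f1, another activator, differed by 0.44 ± 0.16. Cyclin E1 (Ccne1), the cyclin that drives entry into S phase, had 4.76, 4.82 and 3.18 on hairpins 1, 2 and 3, against 2.81 on the control array (0.57 ± 0.34). On hairpins 1 and 2 it was at least 1.70-fold above the control, and on hairpin 3 it was 1.13-fold above.

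**Figure D3:**
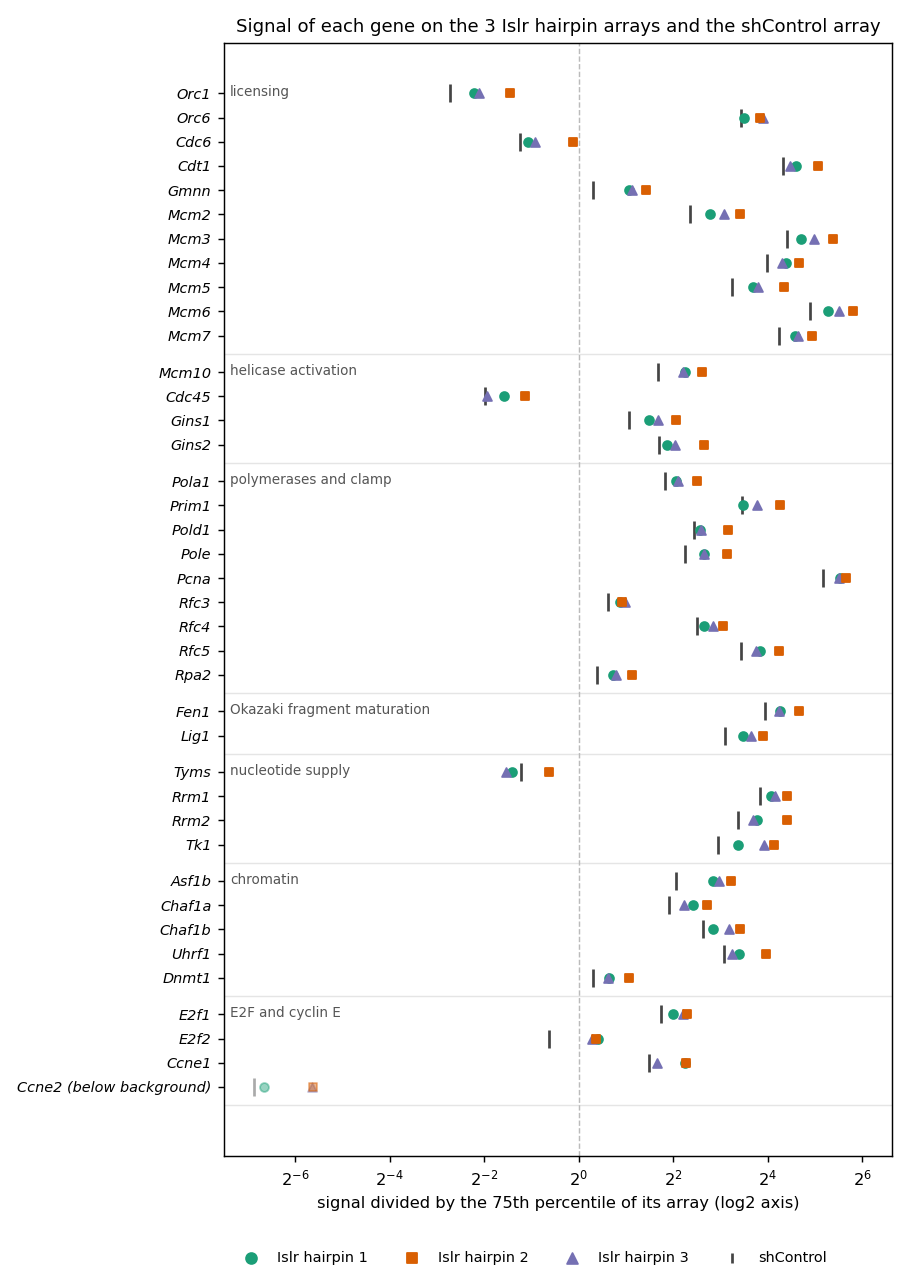
Relative signal (spot signal divided by the 75th percentile of its array, log2 axis) of the 39 genes on Islr hairpins 1 (circles), 2 (squares) and 3 (triangles) and on the shControl array (vertical bars). The control bar is the leftmost mark in all genes above background except Tyms, and Ccne2, drawn faint, lies below background on every array.

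The hairpins also differed among themselves, in a comparison that does not use the control array. Hairpin 2 was the highest of the 3 hairpins in 35 of the 38 genes, against 33.8% of all genes tested. The exceptions were Orc6 and Rfc3, highest on hairpin 3, and E2f2, highest on hairpin 1. Over the 38 genes the median difference was 0.43 between hairpins 2 and 1, 0.39 between hairpins 2 and 3, and 0.07 between hairpins 3 and 1, while over all genes these medians were 0.03, -0.03 and 0.06. The order 2, 3, 1 was seen in 22 genes (17.6% of all genes) and the order 2, 1, 3 in 13 (16.2% of all genes). At least 1.5-fold above the control were 4 of the 38 genes on hairpin 1 (4.05% of all genes), 31 on hairpin 2 (7.28%) and 9 on hairpin 3 (9.68%). At least 2-fold above it were 9 genes on hairpin 2 (1.88% of all genes), namely Orc1, Tk1, Asf1b, Cdc6, Gmnn, Mcm5, Rrm2, Mcm2 and E2f2. On hairpin 1 this held for E2f2 alone (1.46% of all genes) and on hairpin 3 for 0 genes (3.17%). Without hairpin 2 the mean difference was less by over 1.5 times in 9 genes (Cdc6, Cdt1, Cdc45, Gins2, Pola1, Prim1, Pold1, Rrm2 and Uhrf1), where it ran from 0.13 to 0.37. Hairpin 2 is also the array on which most Islr signal was left, and with 1 array per hairpin neither difference could be tested.

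Each of the 38 genes rests on a single spot per array, so the error of a spot bears on these values. The scanner software's own error was between 10% and 12.1% of the signal, which gives a difference of 2 arrays an error of 0.20 to 0.24 on the log2 scale. In 27 of the 38 genes the difference was above this error on all 3 hairpins. By hairpin it was above it in 31 genes on hairpin 1, 38 on hairpin 2 and 32 on hairpin 3. No share of all genes is given here for these counts. Over all genes the 75th percentile of the difference was 0.16, 0.23 and 0.31 on hairpins 1, 2 and 3. On hairpins 2 and 3 many other genes thus also reach the size of this error. That error covers the reading of a spot and not the spread between cultures, which 1 array per hairpin leaves unmeasured. Repeated spots of other probes on the same array had a median SD of 0.06 to 0.07, with a 95th percentile of 0.23 to 0.30. These are SDs of spots within an array and not errors of a difference of 2 arrays. For 6 genes a further probe was present, and for 5 of them it was well above background on all 4 arrays. Its mean difference was 0.53 for Cdc6, 0.39 for Rfc4, 0.64 for Chaf1b, 0.48 for Uhrf1 and 0.56 for Ccne1, against 0.54, 0.35, 0.52, 0.45 and 0.57 for the probes used above. On hairpin 3 the further probes of Uhrf1 (-0.004) and Ccne1 (-0.04) lay at the control level, as did that of Cdc6 on hairpin 1 (0.015). By sign alone 3 of the 5 were higher on all 3 hairpins, Cdc6 among them.

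Other genes of the same pathways were read from lists chosen with earlier results of these data known. Of 40 other replication genes 39 were tested, and 35 lay above the control on every hairpin, against 27.6% of all genes. The GINS gene Gins3 (-0.22 ± 0.17) was the 1 that lay below it on every hairpin. Their median difference was 0.48, and 0 passed limma's test, with 4 at an unadjusted p under 0.05, against 1.52% of all genes. Among the larger mean differences were those of Pole2 (0.75 ± 0.31), of the leading strand polymerase, the fork protection gene Timeless (0.67 ± 0.31) and Cdca7 (0.63 ± 0.49), a chromatin factor. The 3 that went both ways were Orc4 (-0.07 ± 0.11), Rfc1 (0.05 ± 0.23) and Rpa1 (0.06 ± 0.08). Among the mitosis genes 19 of 20 were higher on all 3 hairpins, against 27.6% of all genes, with a median of 0.52, and the largest means were those of the survivin gene Birc5 (0.86 ± 0.28), cyclin A2 (Ccna2, 0.75 ± 0.21), the kinase gene Aurkb (0.67 ± 0.27) and the kinesin gene Kif23 (0.65 ± 0.18). The median of mitosis genes was 0.37, 0.79 and 0.43 on hairpins 1, 2 and 3. Hairpin 2 was the highest hairpin in 20 of 20, against 33.8% of all genes, with Kif23 at 0.75 on both hairpins 2 and 3. Cenpf, the mitosis gene that went both ways, had -0.17, 1.18 and -0.66 on hairpins 1, 2 and 3. It was not well above background on hairpin 1. With normexp correction and quantile normalization the Aurkb mean was 0.32. No mitosis gene passed limma's test, and 3 had an unadjusted p under 0.05 (1.52% of all genes, counting higher ones).

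The other E2F and pocket protein genes were less uniform, with 7 of 11 above the control on every hairpin (27.6% of all genes) and 1 below it (24.6%). The atypical repressor genes E2f7 (0.81 ± 0.47) and E2f8 (0.74 ± 0.22) had the largest means by the brightest probe, followed by E2f4 (0.47 ± 0.11) and the retinoblastoma gene Rb1 (0.36 ± 0.48), which was below the control on hairpin 2. Averaged over its probes, E2f7 had a mean of 0.42, below those of E2f8 and E2f4. Rbl2, a pocket protein gene of resting cells, was the 1 that was lower (-0.24 ± 0.16). Among 14 genes of G1 cyclins, kinases and their inhibitors, 6 were higher and 4 lower on all 3 hairpins, against 27.6% and 24.6% of all genes. The 6 were Skp2 (0.80 ± 0.18), whose ligase degrades an inhibitor of cyclin kinases, Ccnd1 (0.50 ± 0.39), Ccnd3 (0.39 ± 0.08), Cdk2 (0.49 ± 0.27), Cdk4 (0.24 ± 0.02) and the phosphatase gene Cdc25a (0.37 ± 0.06). Of the 6 inhibitor genes in the list, 4 were lower on every hairpin: Cdkn1a (-0.55 ± 0.29), Cdkn2a (-0.49 ± 0.17), Cdkn2c (-0.35 ± 0.05) and Cdkn1b (-0.28 ± 0.09). Cdkn1a dropped out when probes that the scanner software flags as outliers were removed. Of the 13 genes then left in the list, 3 were lower on all 3 hairpins. The other inhibitor genes went both ways, Cdkn1c at -1.58, 0.71 and -1.27 and Cdkn2b at -0.19, -0.62 and 0.48 on hairpins 1, 2 and 3. No gene of these 2 lists passed limma's test. In each list 1 gene was higher at an unadjusted limma p under 0.05, against 1.52% of all genes. Genes outside the 4 largest of each list were named after their values were seen.

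**Figure D4:**
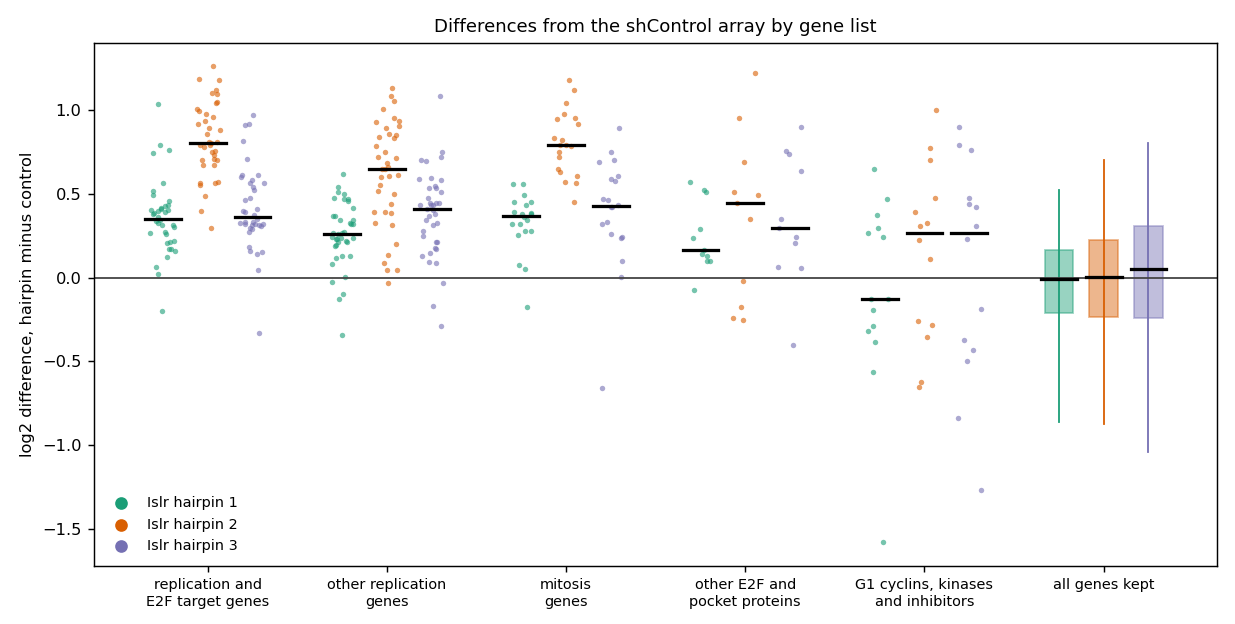
Log2 difference from the shControl array on Islr hairpins 1, 2 and 3 for each gene of 5 lists (points, with the median as a black bar) and for all 13567 genes tested (boxes from the 25 to the 75 percentile, lines from the 5 to the 95 percentile). The medians of the replication and E2F target genes, 0.35, 0.81 and 0.36, and of the mitosis genes, 0.37, 0.79 and 0.43, lie above 0 on every hairpin, with hairpin 2 the highest.

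Within the genes with a promoter sequence, those with and without a match to the E2F strings had similar differences. The 14 with a match had a median mean difference of 0.51 (from 0.31 to 0.99), and the 19 without one had 0.49 (from 0.01 to 0.96). This comparison is a description of promoters whose genes were chosen together.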

How the data were processed

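Total RNA of 4 cultures was labelled with Cy3 and put on 1-colour Agilent arrays. Per the file headers, the authors read them with Agilent Feature Extraction 11.5.1.1 (design 028005, build mm9). The deposited intensity is background-subtracted and detrended within an array, and not scaled between arrays. The series table holds the same intensity times 1 factor per array (2.25, 2.08 and 2.02 for hairpins 1 to 3, 2.10 for the control), and how these were chosen is not stated.

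Repeated spots were averaged as log2 values, probes were named through RefSeq accessions (28026 of 55681), and each array was divided by its 75th percentile. Kept were probes that exceeded background clearly on shControl or on every shIslr array (13567 genes), with the probe of highest mean signal per gene. Genes were tested with limma 3.58.1 in R 4.3.3 (lmFit, eBayes, two-sided, Benjamini-Hochberg over all genes), and the procedure was tested on simulated data. The hairpins are the replicates, so p-values set the mean difference against the spread between hairpins, which limma draws toward that of all genes. The control array is assumed to vary like the hairpins, and the number of arrays limits the precision. The members, lists and rules were chosen with earlier results of these data known. In each role group the genes with the largest and the lowest smallest-of-3 difference were given array by array, as were Pcna, Tyms and Ccne2, and others were added after their values were seen. From each other list the 4 largest mean differences were named, except that 1 gene of the other replication genes, and 1 leukocyte marker, are not reported by name here. Alternatives were other normalizations, filters, folds, thresholds and probe rules, and each hairpin left out.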

Additional observations from a re-analysis of the deposited data

How the results depend on the processing

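No member passed limma's test under any of the 14 other settings it was run with, including a threshold of 0.10 and an intensity trend. Over all genes limma's lower calls, 47 here, were 75 with quantile normalization and 0 with normexp, no filter, the filter on all 4 arrays, the intensity trend or any hairpin left out. The count of members higher on all 3 hairpins, or on the 2 kept where 1 was left out, was between 36 and 38. That of the other replication genes was between 34 and 36. The share of all genes ran from 24% with the series table values to 37.4% without hairpin 2. The 38 were of 39 members with no filter, where Ccne2, below background on every array, entered. The members' count was 36 with the series table values and with the 75th percentile over detected probes (added after the data were seen), where Cdc45 lay below the control on hairpin 3. The members' median difference ranged from 0.45 to 0.50 over other scalings, filters and probe rules and from 0.36 (without hairpin 2) to 0.59 (without hairpin 3). The count of members at least 1.5-fold higher on each hairpin was 3 under other normalizations, filters and probe rules. It was 16 with a fold set below 1.5, which is a looser rule for every gene. No share of all genes is given here for that fold. The rise from 3 to 16 thus does not set the members apart from other genes. At 2-fold the count of members was 0, against 0.236% of all genes. With 1 hairpin left out it was 9 without hairpin 1, 3 without hairpin 2 and 4 without hairpin 3. The share of all genes rose as well, from 0.958% on 3 hairpins to 3.11%, 2.16% and 1.32% in that order. The rule then asks for 2 arrays only, so these counts are not comparable with that on 3 hairpins. Tyms changed sign with the series table values (-0.026), with the percentile over detected probes (-0.012) and without hairpin 2 (-0.266, up to 0.187 without hairpin 3). Without hairpin 2, Rfc1 (-0.081, up to 0.142 without hairpin 1) and Cenpf (-0.416, up to 0.504 without hairpin 3) changed sign too. Rpa1 did so with normexp and quantile normalization (-0.025). With the same sign, means moved by over 1.5 times for Cdca7 (0.38) and Rb1 (0.63) without hairpin 2, for Rb1 (0.17) and Ccnd1 (0.29) without hairpin 3, for Rbl2 (-0.14) with normexp, and for Cdkn1c (from -1.42 to -0.28 with 1 hairpin left out). The cause was not tested. No paired analysis was possible because the control group holds 1 array. That lone array leaves the spread of the control unmeasured.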

Other observations

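The CCAAT box, the letters that the factor NF-Y binds in many cell cycle promoters, was searched in the same windows on both strands. It was in 25 of 41 windows of the replication and E2F target genes (61.0%) and in 14 of 16 windows of the mitosis genes (87.5%). It was in 16 of 39 windows of the other replication genes (41.0%), against 37.4% of all 32851 windows. The E2F strings were in 1 of the 16 mitosis windows (6.25%) and in 12 of 39 windows of the other replication genes (30.8%), against 14 of 41 (34.1%) for the replication and E2F target genes. These shares describe letters in promoter windows and were not tested.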
